A study of Drosophila melanogaster with 4 samples.

Results

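The Eiger and JNK pathway was followed in the pole cells of Drosophila melanogaster, the precursors of the germ line, when the kinase Tao was expressed in them. The pathway was taken as 10 genes, namely the ligand gene egr, the receptor gene wgn, the kinase genes Tak1, slpr, hep, Mkk4 and bsk, the transcription factor genes Jra and kay, and the target gene puc. A gene was measured where the platform annotation gave at least 1 probe with its symbol alone. This held for 8 of the 10 genes, with 22 probes, among 10804 genes measured in the same way. Tak1 was matched to no probe by this rule, and Jra is listed only on 2 probes that also carry 14-3-3zeta, so neither was analysed here.

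Eiger is the fly member of the tumour necrosis factor family and signals through the receptors Wengen and Grindelwald. Signal passes through a MAP3K (Tak1 or Slipper) and a MAP2K (Hemipterous or Mkk4) to Basket, the fly Jun N-terminal kinase (JNK). Basket phosphorylates Jun (Jra), which pairs with Fos (kay) as the transcription factor AP-1, and AP-1 switches on puc, whose phosphatase in turn inactivates Basket. The pathway is known in embryos for the closure of the dorsal epidermis over the amnioserosa and elsewhere for stress responses and cell death. Tao belongs to the Ste20 family, and its mammalian relatives are known to activate MAP2Ks of the stress pathways.

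Pole cells came by FACS from stage 8 to stage 14 embryos that carried the EGFP-Vas germ-line marker. All fathers brought EGFP-Vas and a UAS transgene for tao-1, in the form D168A, called dominant negative in the labels, or in the form D168D, described there as overexpression. Mothers were homozygous for nosGal4:VP16 (driven) or of the yw strain (non-driven), so all cells compared carried the transgene and the marker, and the maternal genotype cannot be told apart from the expression of Tao. The driver takes its name from nos (nanos), a gene active in the germ line. Each form had 2 arrays of 2 colours, the driven RNA being Cy3-labelled on 1 of them and Cy5-labelled on the other, which were treated as a dye swap of 1 replicate. Every value below is a log2 ratio of driven over non-driven cells, not a level, and the figure after ± is how far each array of a form lay from their mean, a measure of hybridisation and dye error that leaves out biological spread.

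Tao, the targeted gene, was at 2.98 and 2.84 on the D168A arrays and at 3.04 and 2.99 on the D168D arrays, with the same sign throughout. The direction of the deposited ratios was itself read from this sign, so Tao gives no check of the direction. Over all genes the medians of the arrays lay between -0.0022 and 0.01. The arrays of a form correlated across genes at -0.10 with D168A and 0.01 with D168D, so across genes the ratio on an array told little of the ratio on its dye swap. Between the forms the Cy3-driven arrays correlated at 0.36, the Cy5-driven arrays at 0.15, the D168A Cy5-driven with the D168D Cy3-driven array at 0.30, and the remaining pair at -0.15. Of these, 3 of the 4 pairs of arrays from different forms were closer than either pair within a form. The median distance of an array from its form's mean was 0.11 with D168A and 0.16 with D168D. Spot intensities were not used here, so depth and signal over background are unknown, and precision is set by having 4 arrays. Of 8 pole cell marker genes listed, 5 were measured and 4 had a mean above 0 in each form, where 53.2% and 47.0% of all genes did with D168A and D168D. The germ plasm gene osk had the ratio farthest from 0 among them, at -0.23 and -0.65 on the D168A arrays and at 0.05 and 0.04 on those of D168D. Such ratios give no level by which the labelled cell type could be checked, and vas, nos and pgc have no value here.

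The ligand gene egr (NCBI Gene 36054) had the highest ratio of the pathway. It was at 0.39 on the D168A array with Cy3-labelled driven RNA and at 0.27 on that with driven RNA in Cy5. On the D168D arrays it was at 0.69 and 0.90 in the same order. All 4 arrays lay above 0, as for 9.33% of all genes, and both D168D values lay above both D168A values. The share of all genes with the forms in this order was not counted. The means were 0.33 ± 0.06 with D168A (1.26-fold) and 0.79 ± 0.10 with D168D (1.73-fold).

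Both probes of egr showed this pattern. Probe 15095 was at 0.41 and 0.17 on the D168A arrays and at 0.62 and 0.85 on those of D168D, and probe 16838 was at 0.37, 0.36, 0.77 and 0.95 on the same arrays. No value of either probe was below 0. With D168D, egr was at least 1.5-fold higher in driven cells on both arrays, which 0.768% of all genes reached, and it stood 69th of 10804 genes by its mean. With D168A it stood 634th and did not reach 1.5-fold on either array. In total, 65 other genes (0.602%) lay at or above the lowest array value of egr on every array.

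**Figure D1:**
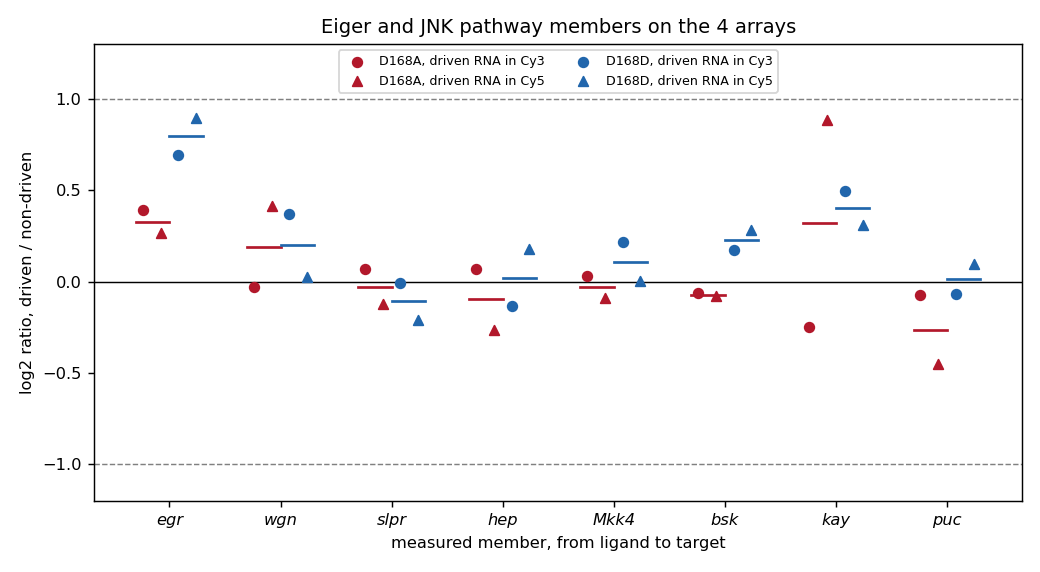
Log2 ratio of driven over non-driven cells (vertical axis) for the 8 measured members (horizontal axis), with a point for each array and a bar for the mean of each form's 2 arrays. Dashed lines mark 2-fold, which no member reached, and egr is the gene with all 4 points above 0, from 0.27 to 0.90.

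The receptor gene wgn (NCBI Gene 32849) was at -0.03 and 0.41 on the D168A Cy3-driven arrays and Cy5, and at 0.37 and 0.03 on the D168D arrays. Its high arrays had opposite dye orientations in the forms, and the forms overlapped. Its means were 0.19 ± 0.22 with D168A and 0.20 ± 0.17 with D168D. Probe 1065 ranged on its own from -0.40 to 1.09 between the D168A arrays, whereas probe 4492 went the other way, from 0.34 to -0.27. The probes thus disagreed on which array was the higher. The other Eiger receptor gene, grnd, was at 0.18 ± 0.26 with D168A and -0.01 ± 0.02 with D168D.

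Among the kinases, slpr (NCBI Gene 44111), which encodes a mixed-lineage MAP3K, was at 0.07 and -0.13 on the D168A arrays and at -0.0064 and -0.21 on the D168D arrays. Both forms had the lower value on the array with Cy5-labelled driven RNA. Its means were -0.03 ± 0.10 and -0.11 ± 0.10. The MAP2K gene hep (NCBI Gene 32256) was at 0.07 and -0.26 on the D168A arrays and at -0.14 and 0.18 on those of D168D, so each form had 1 array above and 1 below 0. The means were -0.10 ± 0.16 and 0.02 ± 0.16. Its 5 probes had form means from -0.22 to -0.02 with D168A and from -0.07 to 0.25 with D168D. All 5 were below 0 with D168A, though their single arrays ranged from -0.62 to 0.42.

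The other MAP2K gene, Mkk4 (NCBI Gene 41020), was at 0.03 and -0.09 on the D168A arrays and at 0.21 and 0.00036 on those of D168D. Its means were -0.03 ± 0.06 and 0.11 ± 0.11. Of its 3 probes, probe 6281 was at 0.54 on the D168D array with Cy5-labelled driven RNA, where probe 6913 was at -0.47. The near-zero gene value on that array is therefore an average of probes that disagreed in sign.

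The JNK gene bsk (NCBI Gene 44801) was at -0.06 and -0.08 on the D168A arrays and at 0.18 and 0.28 on the D168D arrays. The forms did not overlap: both D168A arrays lay below 0 and both D168D arrays above it, a pattern of 1.88% of all genes. The means were -0.07 ± 0.01 and 0.23 ± 0.05, and both distances were the smallest of the 8 members. All 3 probes were above 0 on both D168D arrays, with probe means from 0.16 to 0.30, and their D168A means ran from -0.14 to -0.03. On single D168A arrays the probes fell on either side of 0, from -0.34 to 0.13.

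**Figure D2:**
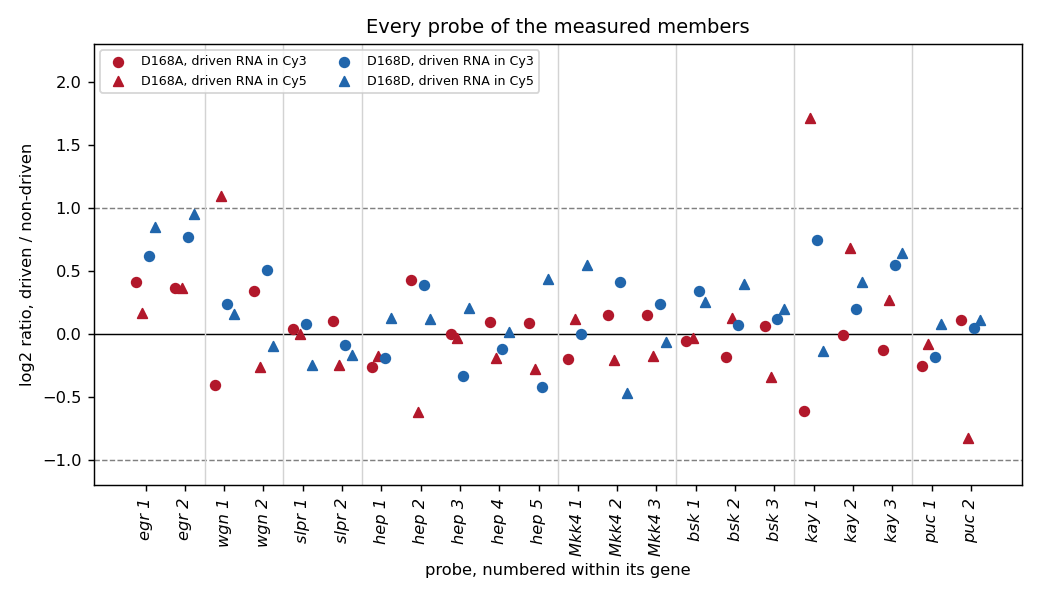
Log2 ratio of driven over non-driven cells (vertical axis) for each of the 22 probes, numbered within its gene (horizontal axis), with a point for each array and dashed lines at 2-fold. The probes of egr lie above 0 throughout, whereas the first probes of wgn and kay exceed 2-fold on the D168A array with Cy5-labelled driven RNA (1.09 and 1.71) and lie below 0 on its dye swap.

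The Fos gene kay (NCBI Gene 3772082) was the member with the widest disagreement between arrays. It was at -0.25 and 0.89 on the D168A arrays and at 0.50 and 0.31 on the D168D arrays. The D168D arrays lay between those of D168A, so the forms overlapped. The means were 0.32 ± 0.57 and 0.40 ± 0.09. Probe 1401 gave -0.61 and 1.71 on the D168A arrays, while probes 3857 and 5920 gave -0.01 and 0.68 and -0.13 and 0.27. All 3 probes were thus below 0 on the Cy3-driven array and above 0 on the Cy5-driven array. On the D168D arrays, probes 3857 and 5920 were above 0 on both, and probe 1401 was at 0.74 and -0.14.

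The target gene puc (NCBI Gene 40958), widely used as a readout of JNK activity, was at -0.08 and -0.45 on the D168A arrays and at -0.07 and 0.09 on the D168D arrays. Its other values lay near 0 and the D168A array with Cy5-labelled driven RNA lay apart from them. The means were -0.26 ± 0.19 and 0.01 ± 0.08. The low value came from probe 21794, at -0.83 on that array against 0.11, 0.05 and 0.11 on the others, while probe 14506 was at -0.26, -0.08, -0.19 and 0.08. By its D168A mean puc stood 10359th of 10804 genes, but its probes did not share the array on which they were lowest.

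Over the 8 measured members, 0 were at least 2-fold changed on both arrays with D168A (0.157% of all genes) and 0 with D168D (0.167%). The median of the members was -0.03 with D168A, where that of all genes was 0.01, and 0.15 with D168D, where that of all genes was -0.01. With D168D, 7 of the 8 means lay above 0, as did 47.0% of all genes, and with D168A 3 of 8 did, as did 53.2%. Among the 7, hep and puc were close to 0, at 0.02 ± 0.16 and 0.01 ± 0.08. On both D168D arrays, 5 members were above 0 (23.3% of all genes), and on both D168A arrays 1 was, egr (24.4%). Of the 5, Mkk4 and wgn were only at 0.00036 and 0.03 on the D168D array with Cy5-labelled driven RNA. Of 88 probe values, 2 reached 2-fold (2.27%) and 12 reached 1.5-fold (13.6%), where 2.28% and 10.8% of the values of all 17328 probes did. Those at 2-fold were the D168A values of wgn and kay with driven RNA in Cy5. Since the samples are bulk RNA, fewer cells of a type and less RNA per cell cannot be told apart in any of these ratios.

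The contrast common to both forms asked which genes moved alike in both pairs. In limma on the pair means, adjusted over all genes by the Benjamini-Hochberg method, 0 members passed an adjusted p of 0.05 (0.0555% of all genes). At an unadjusted p under 0.05, egr and kay were counted, 2 of 8 in the higher direction, where 8.0% of all genes were. For egr the common ratio was 0.56 (SE 0.13, 95% interval 0.22 to 0.90, 1.48-fold), with an adjusted p of 0.337 and 4 of 4 arrays above 0. For kay it was 0.36 (SE 0.09, interval 0.14 to 0.58), with an adjusted p of 0.337 and 3 of 4 arrays above 0. The error of kay is computed from its form means, which lie close together, and averaging the dye swap hides the spread between its D168A arrays. With the 4 arrays as replicates, the unadjusted p of kay was 0.0892 and that of egr 0.00375, and neither passed after adjustment (0.683 and 0.486).

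The other members had common ratios from -0.13 to 0.20. Their intervals do not bound the effects, since averaging the dye swap hides the spread between the arrays of a form. The common ratio of wgn was 0.20 (95% interval -0.02 to 0.41, adjusted p = 0.39 in limma). With each array as a replicate in limma, its interval widened to -0.08 to 0.47 (SE 0.11 against 0.08). By that fit the interval of bsk narrowed, to -0.17 to 0.33, and that of Mkk4 hardly changed. From the form means, the intervals were -0.29 to 0.15 for slpr, -0.26 to 0.19 for hep, -0.19 to 0.27 for Mkk4 and -0.19 to 0.35 for bsk. For puc the ratio was -0.13 and its interval ran from -0.39 to 0.14. All the intervals from the form means stay inside 2-fold, but with 2 pairs they rest on a spread moderated over all genes. Nothing in the labels says that the cells of a form came from more than 1 collection, so biological spread may be missing.

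**Figure D3:**
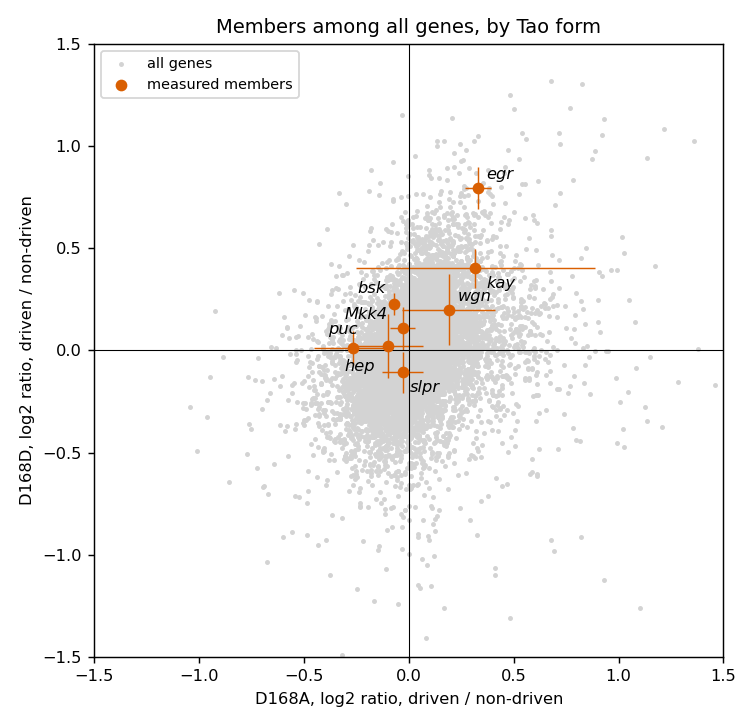
Form means of all 10804 genes (grey) and of the 8 measured members (orange), as log2 ratios of driven over non-driven cells with D168A (horizontal axis) and D168D (vertical axis). Bars end at the single arrays, and 15 genes beyond 1.5 in either direction are not drawn. Most members sit inside the cloud and egr lies at its upper edge, at 0.33 and 0.79.

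Set against each other within a dye orientation, the forms differed at least 2-fold in 0 of the 8 members (0.139% of all genes) and at least 1.5-fold in 0 (0.824%). The difference of egr was -0.30 on the Cy3-driven arrays and -0.63 on those with it in Cy5, so it was lower with D168A by -0.47 ± 0.17 in the mean. That of bsk was -0.24 and -0.36 (-0.30 ± 0.06), and that of Mkk4 -0.18 and -0.09 (-0.14 ± 0.05). For slpr the difference went the other way, at 0.08 in both orientations. For puc it was -0.0055 and -0.55, so its size came from the Cy5-driven arrays. The remaining members had opposite signs in the dye orientations: kay was at -0.75 and 0.58, wgn at -0.40 and 0.38, and hep at 0.20 and -0.44. By the mean difference, 7 of 8 members were lower with D168A than with D168D, where 55.2% of all genes were higher. Each form is 1 replicate, so these differences have no test over replicates. Treating the 4 arrays as replicates in limma, 0 of the 8 members passed and 0 had an unadjusted p under 0.05, with egr nearest (95% interval of the difference -0.99 to 0.06, unadjusted p = 0.0737, adjusted p = 1).

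Genes around the pathway were taken from 4 lists. Of 19 receptors, adaptors and upstream kinases, 14 were measured, and 0 reached 2-fold on both arrays of a form or passed limma's adjusted threshold. Their medians were 0.04 with D168A and 0.04 with D168D. The highest common ratio was that of msn, the Ste20 kinase gene known to act above Slipper and Hemipterous, at 0.17 and 0.04 on the D168A arrays and at 0.49 and 0.34 on those of D168D. It was above 0 on 4 of 4 arrays, with a common ratio of 0.26 (adjusted p = 0.388 in limma). The lowest was ben, which encodes a ubiquitin-conjugating enzyme used in Eiger signalling, at -0.24 and -0.20 on the D168A arrays and at -0.10 and -0.18 on those of D168D. Of the list, 4 genes were above 0 on all 4 arrays and 2 below, against 9.33% and 8.26% of all genes.

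The p38 branch, the other stress kinase cascade, had 2 measured members of 5, neither of which reached 2-fold. The p38 gene p38a was at 0.03 ± 0.0013 with D168A and -0.11 ± 0.09 with D168D. Its D168A arrays lay above and its D168D arrays below 0, as in 3.03% of all genes. The MAP2K gene lic was at 0.07 ± 0.23 and -0.03 ± 0.34. Among 6 brakes and partners of JNK output, all measured, 0 reached 2-fold and the medians were -0.0050 with D168A and 0.10 with D168D. The transcription factor gene rib was highest, at 0.16 and 0.26 on the D168A arrays and at 0.82 and 0.53 on those of D168D, and Ets21C was lowest in the common contrast, at -0.04 ± 0.25 and -0.29 ± 0.01.

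Of 18 genes reported as targets of JNK or AP-1, 11 were measured and 0 reached 2-fold on both arrays of a form or passed limma's adjusted threshold. Their medians were -0.03 with D168A and -0.13 with D168D, and 2 were above 0 and 3 below 0 on all 4 arrays, as were 9.33% and 8.26% of all genes. The BMP ligand gene dpp, which AP-1 activates at the edge of the closing epidermis and which other factors activate in the early dorsal embryo, had the highest ratio. It was at 0.43 and 0.52 on the D168A arrays and at 1.003 and 0.96 on those of D168D. The forms did not overlap, but the share of all genes in this order was not counted. GstD1, an oxidative stress gene, was the lowest, at -0.19 and -0.42 on the D168A arrays and at -0.03 and -0.29 on those of D168D. No other measured gene of this list reached 1.5-fold on both arrays of a form. With D168D, dpp passed this lower threshold in the higher direction, as did 0.768% of all genes.

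**Figure D4:**
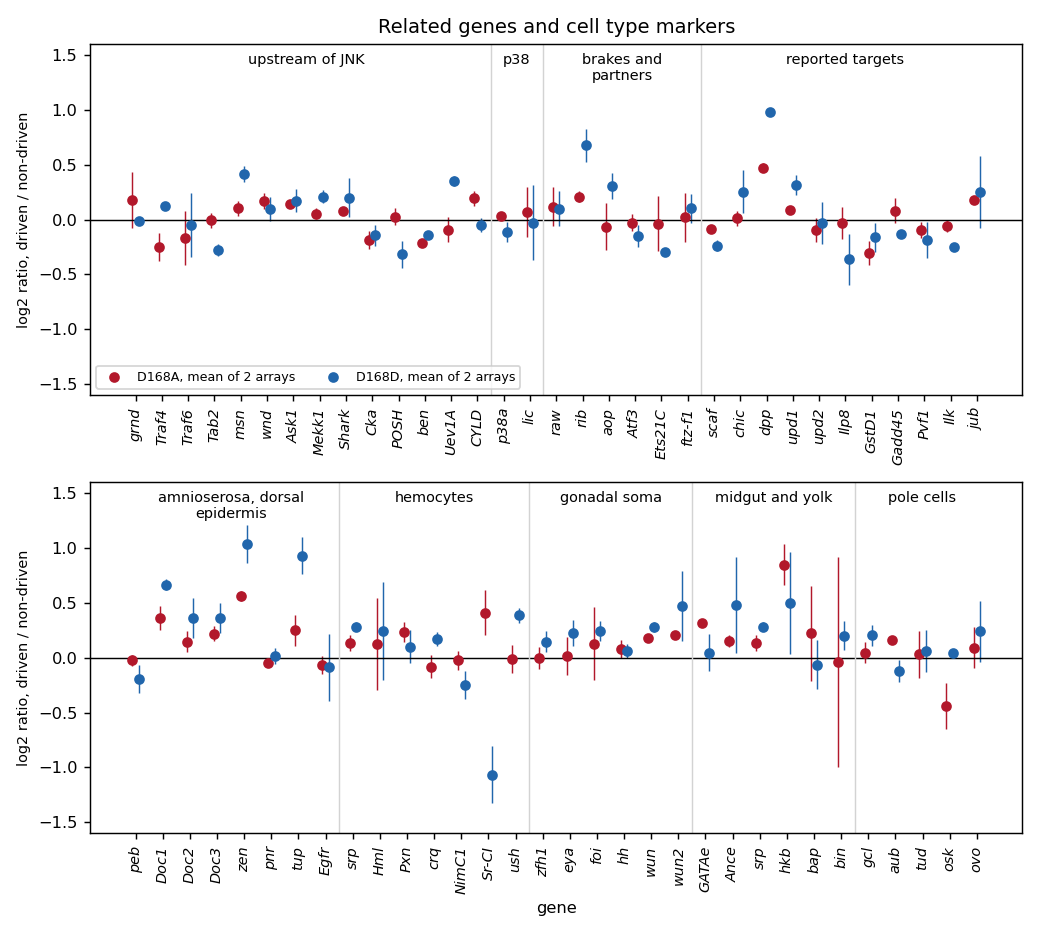
Mean log2 ratio of driven over non-driven cells (vertical axis) in each form for the measured genes of the related lists (upper panel) and of the cell type marker lists (lower panel), with bars that end at the values of the single arrays. Most related genes lie near 0, with dpp highest at 0.98 for D168D, and the amnioserosa and dorsal epidermis markers zen, tup and Doc1 reach 1.03, 0.93 and 0.66.

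Markers of cells that lie outside the germ line were set beside egr. All 8 markers of the amnioserosa and dorsal epidermis were measured. Their median was 0.18 with D168A and 0.36 with D168D, and the range of their means was -0.07 to 0.56 and -0.20 to 1.03. Of them, 5 were above 0 on all 4 arrays (zen, tup, Doc1, Doc2 and Doc3), where 9.33% of all genes were, and 3 were at least 1.5-fold higher on both D168D arrays, where 0.768% were. The marker genes and the counts of arrays above 0 were chosen after their values were seen, so these shares are a description and no test. None of the 8 passed limma's adjusted threshold, and the 5 had adjusted p from 0.306 to 0.377. Doc2 and Doc3 overlapped between the forms, where egr did not. Whether such cells had a part in the ratio of egr was not tested.

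The homeobox gene zen, needed for the amnioserosa, was at 0.61 and 0.51 on the D168A arrays and at 1.21 and 0.86 on those of D168D. The gene tup, a LIM-homeobox gene of the same tissue with 1 probe, was at 0.39, 0.11, 0.76 and 1.10 on the same arrays. Like egr, both had higher values on each D168D array than on either D168A array, as had dpp, Doc1, msn and rib among others. The share of all genes in this order was not counted. The dorsal epidermis gene pnr was at -0.05 ± 0.04 and 0.02 ± 0.07, and the amnioserosa gene peb at -0.02 ± 0.05 and -0.20 ± 0.13, so the list was not above 0 throughout. Of the other marker lists, the D168A and D168D medians were 0.13 and 0.17 for hemocytes (7 of 8 measured), 0.10 and 0.24 for gonadal soma (6 of 8) and 0.19 and 0.24 for midgut and yolk (6 of 6). The pole cell list was at 0.05 and 0.06. Genes above 0 on all 4 arrays numbered 1 for hemocytes, 2 for gonadal soma, 3 for midgut and yolk and 0 for pole cells, beside the 9.33% of all genes, and 0 genes of these 4 lists were below 0 on all of them. The gene srp is in both the hemocyte and the midgut and yolk lists and was counted in each. In the midgut and yolk list, hkb was at 0.66 and 1.03 on the D168A arrays, past 1.5-fold as 0.5% of all genes were, and at 0.96 and 0.04 on those of D168D. Its common ratio of 0.67 (adjusted p = 0.306 in limma) was above that of egr. In the hemocyte list, Sr-CI was at 0.61 and 0.21 on the D168A arrays and at -0.81 and -1.32 on those of D168D, which made it the marker at least 2-fold apart between the forms (0.139% of all genes). Its values rest on 1 probe.

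By the distance between their ratios over the 4 arrays, the genes most like egr among 10332 others with no ratio listed as exactly 0 were gt, Doc1 and CG4586, at distances of 0.09, 0.22 and 0.23. The gap gene gt was at 0.45 and 0.30 on the D168A arrays and at 0.70 and 0.85 on those of D168D. The genes most like puc were yellow-g, ro and rau, at distances of 0.06, 0.07 and 0.08. With 4 values per gene such likeness is a description of these arrays.

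The genes next to egr in the RefSeq gene order were also compared. The nearest 3 measured genes on either side had common ratios from -0.13 to 0.26, below the 0.56 of egr. Those directly beside it, CG1371 and CG2269, were both above 0 on 4 of 4 arrays. CG1371 was at 0.30 ± 0.05 with D168A and 0.22 ± 0.16 with D168D, and CG2269 was at 0.18 ± 0.10 and 0.35 ± 0.08. The highest D168D mean of these 6 neighbours was 0.35, where that of egr was 0.79.

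**Figure D5:**
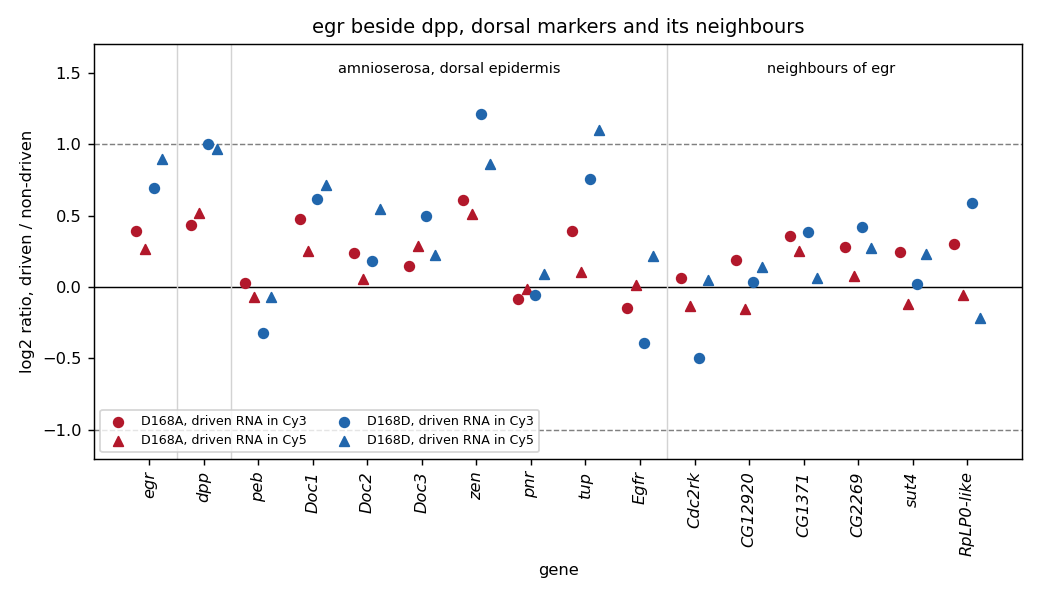
Log2 ratio of driven over non-driven cells (vertical axis) on each array for egr, dpp, the amnioserosa and dorsal epidermis markers and the nearest 3 measured genes on either side of egr in genome order (horizontal axis), with dashed lines at 2-fold. The D168D points of egr, dpp, zen and tup lie above their D168A points, and the neighbours of egr stay below it on the D168D arrays.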

How the data were processed

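The authors deposited 1 log10 ratio per feature and array. The submitters' processing notes name Agilent Feature Extraction 7.1. For background correction and dyes, the method is not given in the sources used here. A log base of 10 was inferred from that software and from the largest size of 2 among the values. The direction is not stated beside the values. They were read as driven over non-driven on all 4 arrays, with no sign turned, since Tao is above 0 on each.

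Of 22575 features, 17328 had 1 gene symbol, 326 several and 4921 none, and those with 1 were used. Ratios were converted to log2 and probes averaged into 10804 genes. Both arrays of a form were averaged and counted as 1 replicate, so calls within a form needed 2-fold on both arrays and carry no p. The common contrast used lmFit and eBayes of limma 3.58.1 in R 4.3.3, with 1 averaged ratio per form tested against 0, two-sided and adjusted over all genes by Benjamini-Hochberg. With 1 residual degree of freedom per gene, its p-values rest on how far the 2 forms differ. The fit was tried on simulated data in which the 2 forms deviated independently. Here arrays of different forms correlated at up to 0.36, so that trial is no check of these p-values. Gene neighbours came from the RefSeq table of the Release 6 assembly, and no coordinates or sequences were used.

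The named genes are all measured members, the highest and lowest of the 4 related lists, any gene of those lists past 2-fold or limma's threshold (there was none), and the 3 nearest to egr and puc. The members and lists were chosen with earlier results of these data known. The 1.5-fold threshold is a looser setting tried beside 2-fold. The counts of arrays above 0, the marker genes, Traf4, grnd and the neighbours of egr were chosen after their values were seen. The list gene Pk92B was read as Ask1 by its synonym.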

Additional observations from a re-analysis of the deposited data

Results flagged for a closer look

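In some of the members and list genes, both D168A arrays lay on 1 side of 0 and both D168D arrays on the other. The JNK gene bsk was at -0.06 and -0.08 on the D168A arrays and at 0.18 and 0.28 on those of D168D, a difference of -0.30, and 1.88% of all genes showed this order. The p38 gene p38a was at 0.03 and 0.03 on the D168A arrays and at -0.02 and -0.21 on those of D168D, a difference of 0.15, in the order that 3.03% of all genes showed. With 1 replicate per form neither difference has a test over replicates, and with the 4 arrays as replicates in limma the unadjusted p was 0.193 for bsk and 0.507 for p38a (adjusted p = 1 for each). Opposite sides were also seen for 4 further list genes, with differences of 1.48 for Sr-CI (a hemocyte marker), -0.48 for osk and 0.28 for aub (pole cell markers) and -0.37 for Traf4. Of these, Sr-CI and aub were each measured by 1 probe. By the same fit in limma the unadjusted p was 0.00228 for Sr-CI, 0.0892 for osk, 0.237 for aub and 0.137 for Traf4 (adjusted p = 1 for each).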

How the results depend on the processing

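No member reached 2-fold with D168A or between the forms, and none passed limma's adjusted threshold in the common contrast, under any alternative tried: centred arrays, the median of probes, zeros left out, probes in place of genes, the ratio read as log2, the sign of the Cy3-driven arrays turned, either dye orientation alone, or the 4 arrays as replicates. At an unadjusted p under 0.05 in limma, the alternatives to the common contrast counted 0 to 2 members, or 5 of 22 probes. The shares of all genes and of all probes at this level were not counted under these alternatives, so no excess can be read from these counts. For the counts by size these alternatives also included 1.5-fold, 3-fold and the mean of both arrays. With D168D the count rose from 0 to 1 (egr) at 1.5-fold, by construction, and stayed at 0 under the others. Some alternatives could not have raised these counts. The 3-fold rule is stricter, and reading the ratio as log2 only shrinks the sizes and leaves limma's p-values as they were. No member probe held a zero, so leaving zeros out changed no member's ratio. Turning the sign of the Cy3-driven arrays left 0 members above 0 on all 4 arrays, where egr had been. Of the amnioserosa and dorsal epidermis markers, 1 was then above 0 on all 4 arrays, Egfr, which was not among the 5 before. A gene above 0 on all 4 arrays cannot stay so after this turn, so these losses are by construction. With no sign turned and every probe required to lie above 0, egr stayed and 3 of the first 5 markers were left. The share of all genes under this rule was not counted, and genes with fewer probes, such as tup with 1, meet it more easily. The common ratio of slpr turned to 0.032 on the Cy3-driven arrays alone and that of Mkk4 to -0.044 on the Cy5-driven arrays alone; the cause was not tested. That of egr ranged from 0.54 to 0.58, with adjusted p from 0.214 to 0.677, and that of kay from 0.12 on the Cy3-driven arrays to 0.60 on the Cy5-driven arrays, with adjusted p from 0.232 to 0.832. No test paired over replicates was possible because each form carries the single replicate number 1. Pairing was limited to driven and non-driven RNA on an array and to the forms within a dye orientation. Signal over background is unknown, so which ratios rest on dim spots cannot be said.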
